A study of Mus musculus with 24 samples.

Results

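The genes described here handle cobalamin (vitamin B12) inside the cell or use it. They are Mmachc, Mmadhc, Mtr, Mtrr, Mmaa, Mmab, Mmut, Mcee, Pcca and Pccb, 10 of the 27597 gene names on the array. They were chosen by name: every probe that the scanner files assign to one of them, by its present or an older name, was taken, which gave 17 of 41174 probes. Mmut is listed there as Mut, and Mmadhc under an older clone name. All 10 genes passed the filter on dim probes, and 2 of the 17 probes, 1 of Mmaa and 1 of Mmut, were well above background in none of the 24 samples.

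Cobalamin enters cells bound to transcobalamin and is released in the lysosome. In the cytosol, MMACHC strips the upper ligand and MMADHC directs the cofactor either to methionine synthase (MTR), which remethylates homocysteine with a folate methyl group, or to the mitochondrion. There MMAA and MMAB serve methylmalonyl-CoA mutase (MMUT), the last step by which propionyl-CoA from odd-chain fats, valine, isoleucine, methionine and threonine becomes succinyl-CoA. Inherited defects of these genes in humans cause homocystinuria, methylmalonic aciduria or both, often with neurological disease.

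The cells were N1E-115, a mouse neuroblastoma line that served as a neuronal model. TO cells had been transfected with transcobalamin fused through its N-terminal side to oleosin, a protein of lipid droplets, and the fusion bound cobalamin strongly. OT cells carried the fusion made through the C-terminal side, for which no cobalamin binding was detected. WT cells were the same line without transfection, so they carried no fusion at all. Each line was grown in differentiation medium (d, 2.5% serum and 1.25% DMSO) and in proliferation medium (p, 10% serum), which made 6 groups of 4 samples: TO-d, TO-p, OT-d, OT-p, WT-d and WT-p. Medium d differs from p in both serum and DMSO, so their effects cannot be told apart. The labels do not say which promoter drove the fusions, or whether a line was 1 clone or a pool. They call the samples biological replicates and name no separate cultures, so the spread behind each p-value is that among these samples, and may be technical. The code of 6 samples, 1 per group, ends in b beside a sample of the same number, and whether both came from 1 RNA is not stated. Those like-numbered samples were the most alike of the 6 pairs of their group in 2 of 6 groups, OT-p and OT-d. They ranked 2 of the 6 pairs in likeness in TO-p, TO-d and WT-p, and 6, the least alike, in WT-d.

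Total RNA (0.2 µg per labelling) was read on 12 arrays of 2 samples each, on 3 slides, with 2 samples of each group in Cy5 and 2 in Cy3. The groups were not spread evenly over the slides. Of WT-d, 3 samples were on slide 1 and 1 on slide 3, while OT-d was on slides 2 and 3 only. OT-d and WT-d thus shared slide 3 alone, with 2 samples against 1. The main fit had no slide term, and slide was a covariate in an alternative. Levels are normalized log2 intensities, on which 1 unit is a doubling, and levels of different probes are not compared. Between 54.3 and 65.9% of spots per sample were well above background, no spot was saturated, and the number of arrays limits the precision. All 16 sympathoadrenal markers were well above background in all 24 samples, while the glial gene Slc1a3 and the blood and endothelial genes Ptprc, Itgam and Cdh5 were so in none. Markers of other cells differed in part with the medium or the line. The log2 of the summed intensity of 10 fibroblast and smooth muscle markers, 5 of them well above background in all samples, spanned 12.97 to 13.17 in TO-d and 13.45 to 13.56 in TO-p. It spanned 13.00 to 13.17 in OT-d and 13.41 to 13.49 in OT-p, and 12.81 to 13.28 in WT-d and 13.25 to 13.41 in WT-p. For 10 glial markers, 4 of them well above background in all samples, it spanned 11.13 to 11.35 in TO-d, 11.32 to 11.498 in OT-d and 11.85 to 11.98 in WT-d. The part of these markers in the differences below was not tested. In bulk RNA, fewer cells of a kind and less RNA per cell cannot be told apart.

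Mmut and Pcca, the mutase and the α subunit of propionyl-CoA carboxylase, were higher in TO-d than in both other lines in the same medium. Mtr was also higher in TO-d, from a level that had fallen in all 3 lines. Mmachc fell and Mmaa rose in differentiation medium in every line. Mmab was lower in TO than in WT in both media. A difference was called where limma's p, adjusted by Benjamini-Hochberg across 16240 tested genes, was under 0.05. Every adjusted p below is of this kind, except that those of a gene's further probes were adjusted over 24347 probes. Fitted differences include a dye term and the pairing of samples on arrays, so they can depart from the difference of printed means. Comparisons that share a group, such as TO-d against OT-d and against WT-d, share its 4 samples.

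**Figure D1:**
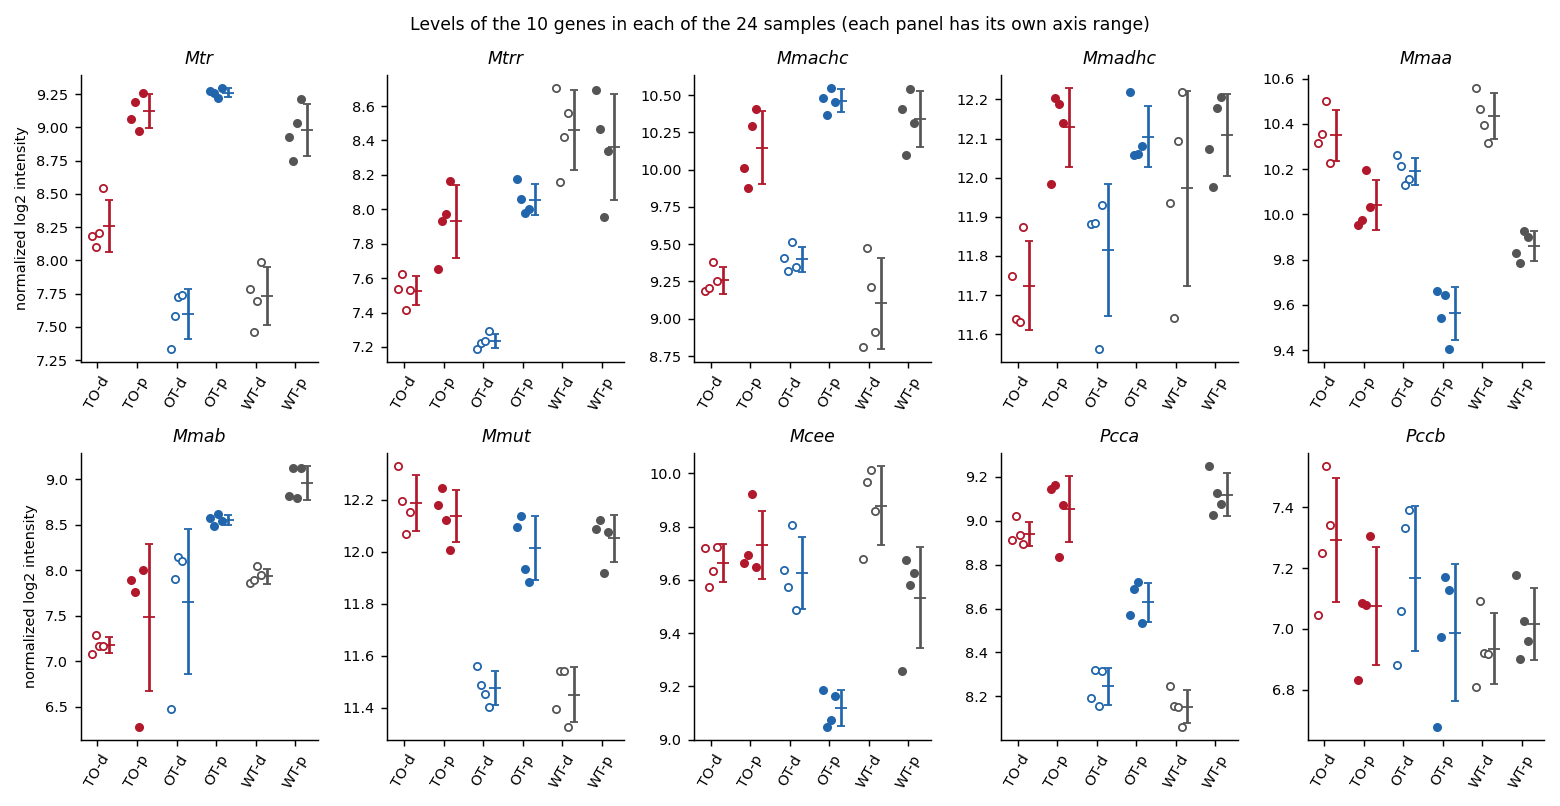
Normalized log2 intensity (vertical axes, each with its own range) of the 10 genes in the 4 samples of each group. TO is red, OT blue and WT grey, open points are differentiation and filled points proliferation medium, and the bars give mean and SD; the 4 TO-d points of Mmut and of Pcca lie above all OT-d and WT-d points, and 1 Mmab point lies far below the rest in TO-p and in OT-d.

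Between TO-d and OT-d, 3 of the 10 genes were called, 3 higher and 0 lower, where 39.9% of all tested genes were called (19% higher, 20.9% lower). Between TO-d and WT-d it was 7 of 10 (4 higher, 3 lower) against 46.6% (22.9% higher, 23.7% lower). Between TO-p and OT-p it was 5 of 10 (3 higher, 2 lower) against 55.9% (29.8% higher, 26.1% lower). Between TO-p and WT-p it was 2 of 10, both lower, against 34.4% (18.8% higher, 15.6% lower). For OT-p against WT-p, 5 of 10 were called (1 higher, 4 lower) against 44.3% (20.5% higher, 23.8% lower). For OT-d against WT-d, 3 of 10 were called, all lower, against 51.8% (26.6% higher, 25.1% lower). On slide 3, the only slide with both groups, these genes were also lower: Mtrr by log2 -0.895, Mmaa by -0.323 and Mcee by -0.323. Mtr, Mmadhc and Mmab turned to higher there and Mmachc and Mmut to lower, and none of them was called in the fit. The medium changed 5 of 10 genes in TO (1 higher, 4 lower) against 52.2% (26.4% higher, 25.8% lower). It changed 9 of 10 in OT (2 higher, 7 lower) against 67.4% (36.3% higher, 31% lower), and 7 of 10 in WT (2 higher, 5 lower) against 66.5% (35.8% higher, 30.7% lower). With 10 genes and this many calls in the background, these counts are no result about the genes as a set, and the genes are described singly below.

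The first step inside the cell is Mmachc, the chaperone that removes the upper axial ligand of cobalamin. Its levels were 9.19, 9.21, 9.38 and 9.25 in TO-d and 10.01, 9.88, 10.30 and 10.41 in TO-p. They were 9.41, 9.32, 9.51 and 9.35 in OT-d and 10.48, 10.36, 10.55 and 10.46 in OT-p. In WT-d they were 8.81, 9.48, 9.21 and 8.91, against 10.41, 10.10, 10.54 and 10.31 in WT-p. The media did not overlap in any line. Mmachc was 1.78-fold lower in TO-d against TO-p (log2 -0.84, SE 0.11, adjusted p = 1.55e-06), 2.27-fold lower in OT-d against OT-p (adjusted p = 1.4e-09) and 2.39-fold lower in WT-d against WT-p (adjusted p = 4.5e-09). Between lines, TO-p lay 1.3-fold below OT-p (log2 -0.38, adjusted p = 0.00624), and within the 3 slides the difference ran between -0.53 and -0.20. In differentiation medium TO-d minus OT-d was log2 -0.04 (95% interval -0.29 to 0.21), not called. TO-d minus WT-d was log2 0.18 and not called (adjusted p = 0.251), but without WT-d replicate 2, the highest of its group, it was 0.38 (adjusted p = 0.00635). OT-d minus WT-d was likewise log2 0.22 (adjusted p = 0.112), and 0.47 without that sample (adjusted p = 0.00084). That sample was the only WT-d sample on a slide with OT-d samples, so without it line and slide cannot be told apart. On that slide OT-d minus WT-d was log2 -0.045. TO-d minus WT-d was 0.207 and -0.225 within the 2 slides that hold both.

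Mmadhc, the adaptor that sorts cobalamin between the cytosolic and the mitochondrial enzyme, varied little: its group means spanned 0.405 on the log2 scale, from 11.72 ± 0.11 in TO-d to 12.13 ± 0.10 in TO-p (SD, n = 4 each). It fell 1.3-fold in TO-d against TO-p (log2 -0.38, adjusted p = 0.000633) and 1.19-fold in OT-d against OT-p (adjusted p = 0.00884; 0.0519 without OT-d replicate 3, which was the lowest of its group at 11.56). WT-d was 11.97 ± 0.25 and WT-p 12.11 ± 0.11, log2 -0.14, not called. TO-d was 1.20-fold below WT-d (log2 -0.26, adjusted p = 0.029). That call was lost without TO-d replicate 3 (adjusted p = 0.0625), without WT-d replicate 4 (0.136) and with slide as a covariate (0.065), and the samples of the groups overlapped. The Mmachc probe lies on chromosome 4 at 116200394 to 116200453 and the Mmadhc probe on chromosome 2 at 50102359 to 50103118 (mm8).

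Mtr encodes methionine synthase, which uses methylcobalamin. Its levels were 8.18, 8.10, 8.21 and 8.54 in TO-d, 7.34, 7.58, 7.72 and 7.74 in OT-d and 7.78, 7.47, 7.70 and 7.99 in WT-d. In proliferation medium they were 9.06, 9.19, 8.97 and 9.26 in TO-p, 9.27, 9.26, 9.22 and 9.30 in OT-p and 8.93, 8.74, 9.03 and 9.21 in WT-p. All 12 differentiation samples lay below all 12 proliferation samples, and within them every TO-d sample lay above every OT-d and WT-d sample. The fall with the medium was 1.83-fold in TO (log2 -0.87, SE 0.09, adjusted p = 3.42e-08), 3.10-fold in OT (-1.63, SE 0.09, adjusted p = 1.46e-13) and 2.42-fold in WT (-1.28, SE 0.10, adjusted p = 1.12e-10). The response of TO was smaller than that of OT by log2 0.76 (SE 0.13, adjusted p = 9.78e-05). It was smaller than that of WT by 0.40 (adjusted p = 0.024), a call that was lost without TO-d replicate 4 (0.132), WT-p replicate 1 (0.0503) or WT-d replicate 2 (0.0692). In differentiation medium TO-d was 1.54-fold above OT-d (log2 0.62, adjusted p = 2.03e-05; 0.70 and 0.81 within the 2 slides that hold both) and 1.45-fold above WT-d (0.53, adjusted p = 0.000245). Both calls were lost when the 10 spots beside debris were kept (adjusted p = 0.0694 and 0.099). In proliferation medium TO-p minus OT-p was log2 -0.13 (95% interval -0.32 to 0.06), not called.

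A second Mtr probe, farther upstream on the transcript, gave smaller differences. The first probe lies on chromosome 13 at 12241388 to 12242396 and the second at 12275727 to 12275786, both on the minus strand in the mm8 positions of the files; the exons they read were not annotated here. On the second probe TO-d was above OT-d by log2 0.36 (adjusted p = 0.00139) and above WT-d by 0.22 (adjusted p = 0.0506, not called). The response of TO against OT was called there too, at 0.39 (adjusted p = 0.0087), but that of TO against WT was 0.09 and not called (adjusted p = 0.574). OT-p was above WT-p by log2 0.26 on the first probe (adjusted p = 0.0128), which was lost without OT-p replicate 4 (0.056) or WT-p replicate 2 (0.109), and by 0.15 on the second (adjusted p = 0.0835).

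Mtrr, methionine synthase reductase, returns oxidized cobalamin on the synthase to its active form. Its 3 probes did not give 1 answer. On the probe with the highest mean, upstream of the other 2, levels were 7.54, 7.62, 7.42 and 7.53 in TO-d, 7.19, 7.22, 7.23 and 7.29 in OT-d and 8.71, 8.16, 8.42 and 8.56 in WT-d. WT-d stood above both fusion lines on this probe, with TO-d minus WT-d at log2 -0.86 (adjusted p = 1.73e-05) and OT-d minus WT-d at -1.17 (adjusted p = 3.27e-08). On the 2 downstream probes TO-d minus WT-d had the opposite sign, 0.17 and 0.25, and was not called (adjusted p = 0.27 and 0.0567), while OT-d stayed below WT-d by 0.29 and 0.26 (adjusted p = 0.0373 and 0.0238). All 3 probes put TO-d above OT-d, by log2 0.31 (adjusted p = 0.0546, not called), 0.46 (0.0037) and 0.51 (0.000275). They gave the same sign in 5 of the 12 comparisons and in 2 of them, OT-d below WT-d and OT-d below OT-p, a call on every probe. In proliferation medium the upstream probe was lower in TO-p against WT-p (log2 -0.42, adjusted p = 0.0059; 0.0665 without TO-p replicate 1), against 0.02 and -0.07 on the others. Its OT-p minus WT-p was log2 -0.41 (adjusted p = 0.00333), against -0.16 (not called) and -0.34 (adjusted p = 0.00252). With the medium, OT fell on all 3 probes (-0.76, -0.54 and -0.22), whereas WT-d minus WT-p was 0.01 on the upstream probe and called lower on the others (-0.42 and -0.30). TO-d minus TO-p was -0.44, called, on the upstream probe and -0.26 and 0.02, not called, on the others. The upstream probe lies on chromosome 13 at 69047062 to 69047975 and the others at 69028642 to 69028701 and 69028215 to 69028274 (mm8, minus strand).

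Mtr and Mmachc, which fell together with the medium, were also the 2 of 8 genes with an entry in the RefSeq promoter table whose 250 bases before the start held ACTACA, any 2 bases, then TCCCA. This element is bound by ZNF143 and by THAP11 with HCFC1, regulators of MMACHC known from human cells. It was searched on both strands, and 1.35% of the 32851 promoters in the table held it. The windows are shown because they carry this shared element, in capitals (GRCm38.p6; Mtr chr13:12258114-12258363 and Mmachc chr4:116708386-116708635, both on the minus strand and written 5′ to 3′ along the gene).
Mtr: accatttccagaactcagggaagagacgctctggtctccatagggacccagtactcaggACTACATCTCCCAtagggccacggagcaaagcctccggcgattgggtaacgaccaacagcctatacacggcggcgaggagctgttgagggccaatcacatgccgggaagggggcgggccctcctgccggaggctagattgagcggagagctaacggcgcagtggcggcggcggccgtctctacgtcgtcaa
Mmachc: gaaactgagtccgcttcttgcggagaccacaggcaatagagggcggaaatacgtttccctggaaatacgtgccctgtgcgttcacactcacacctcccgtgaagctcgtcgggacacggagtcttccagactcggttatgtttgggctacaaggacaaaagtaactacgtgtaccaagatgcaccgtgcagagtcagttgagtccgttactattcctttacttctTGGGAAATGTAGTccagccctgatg
Counted from the gene's start, the element lies at -191 in Mtr, on the gene's strand, and at -25 in Mmachc, on the other strand. No member's window held CACGTG (the E-box, in 6.02% of promoters), TGATGNAA (the ATF4 and C/EBP element, 3.45%) or the palindromic NRF1 element (0.782%), each searched on both strands. These are matches of letters in 1 window per start, and binding was not measured. Of the 4 genes Hcfc1, Hcfc2, Thap11 and Zfp143, 2 fell and 2 rose in TO with the medium. In OT 2 fell and 1 rose, and in WT 1 fell and 2 rose. Of all tested genes, 25.8% fell and 26.4% rose in TO. In OT 31% fell and 36.3% rose, and in WT 30.7% fell and 35.8% rose. Hcfc1 was lower in TO-d against TO-p (log2 -0.51, adjusted p = 1.15e-05), in OT-d against OT-p (-0.99, adjusted p = 7.15e-11) and in WT-d against WT-p (-1.01, adjusted p = 5.22e-10). Zfp143, the mouse ZNF143, was lower in TO-d against TO-p (-0.90, adjusted p = 2.12e-08) and in OT-d against OT-p (-0.77, adjusted p = 5.52e-08), but was not called in WT, where its means were 9.48 in WT-d and 9.52 in WT-p. Thap11 went the other way: it was higher in TO-d against TO-p (0.47, adjusted p = 0.0116) and in WT-d against WT-p (0.47, adjusted p = 0.0131), and was not called in OT. Hcfc2, a paralog of Hcfc1, rose in all 3 lines, with log2 0.94 in OT-d against OT-p (adjusted p = 6.98e-09) and 0.79 in WT-d against WT-p (adjusted p = 7.78e-07). Whether these genes had a part in the fall of Mmachc or Mtr was not tested.

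**Figure D2:**
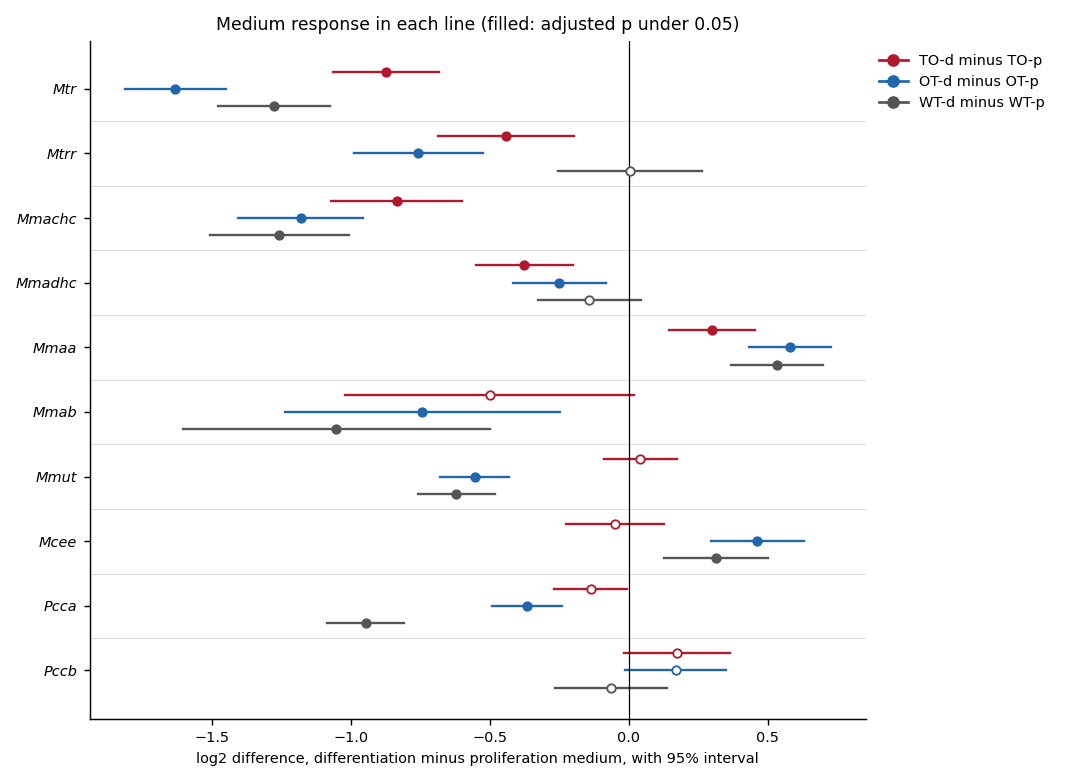
Fitted log2 difference between differentiation and proliferation medium (horizontal axis) with its 95% interval for each gene in TO (red), OT (blue) and WT (grey); filled points have an adjusted p under 0.05. Mtr and Mmachc lie below 0 and Mmaa above 0 in all 3 lines, and Mmut lies at 0.04 in TO against -0.55 in OT and -0.62 in WT.

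In the mitochondrion, Mmaa encodes the GTPase that guards loading of the cofactor onto the mutase. Its levels were 10.31, 10.35, 10.50 and 10.23 in TO-d and 9.95, 9.98, 10.20 and 10.03 in TO-p. They were 10.26, 10.21, 10.13 and 10.16 in OT-d and 9.66, 9.54, 9.64 and 9.41 in OT-p, and 10.56, 10.47, 10.40 and 10.32 in WT-d and 9.83, 9.79, 9.93 and 9.90 in WT-p. The media did not overlap in any line. Mmaa rose 1.23-fold in TO (log2 0.30, adjusted p = 0.00157), 1.49-fold in OT (0.58, adjusted p = 1.53e-07) and 1.45-fold in WT (0.53, adjusted p = 3.16e-06). In proliferation medium TO-p was 1.36-fold above OT-p (log2 0.44, adjusted p = 2.5e-05; 0.29 to 0.50 within the 3 slides), and OT-p was 1.22-fold below WT-p (adjusted p = 0.00113). OT-d was 1.19-fold below WT-d (log2 -0.25, adjusted p = 0.00833), a call lost without OT-d replicate 3 (0.0557) or WT-d replicate 2 (0.0607). The response of TO minus that of OT was log2 -0.28 at an adjusted p of 0.043, and 11 of the 24 refits that left out 1 sample lost that call (adjusted p between 0.0212 and 0.155).

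Mmab encodes the adenosyltransferase that makes adenosylcobalamin, the mutase's cofactor. On the probe that stands for the gene, levels were 7.08, 7.29, 7.17 and 7.17 in TO-d and 7.90, 7.76, 6.28 and 8.00 in TO-p. They were 6.48, 7.90, 8.15 and 8.10 in OT-d and 8.58, 8.49, 8.62 and 8.55 in OT-p, and 7.86, 7.89, 8.05 and 7.95 in WT-d and 8.82, 9.12, 8.79 and 9.13 in WT-p. The 2 low values, 6.28 and 6.48, came from 1 spot, since TO-p replicate 3 and OT-d replicate 1 shared array 5, and the second Mmab probe was not low there. The first probe's spot was not well above background in TO-p replicate 3. On the second probe the levels were 6.80, 6.71, 6.78 and 6.64 in TO-p, 7.18, 7.24, 7.43 and 7.23 in OT-p and 7.68, 7.36, 7.33 and 7.20 in WT-p. Both probes placed every TO-p sample below every OT-p and WT-p sample.

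TO-p was 1.85-fold below OT-p on the first probe (log2 -0.89, adjusted p = 0.00428) and lower by 0.52 on the second (adjusted p = 4.7e-06). It was 2.47-fold below WT-p on the first (log2 -1.30, adjusted p = 0.000198) and lower by 0.66 on the second (adjusted p = 3.62e-07). Without array 5, which holds the dim spot of TO-p, the first probe gave -0.60 against OT-p (adjusted p = 1.79e-05) and -1.02 against WT-p (adjusted p = 2.84e-08). In differentiation medium TO-d minus OT-d was log2 -0.64 and just missed the threshold (adjusted p = 0.059), but without array 5 it was -0.87 (adjusted p = 7.68e-07), and the second probe gave -0.43 (adjusted p = 0.000202). TO-d was below WT-d on the first probe (log2 -0.75, adjusted p = 0.0335) and the second gave -0.21 (adjusted p = 0.0533); without array 5 the first gave -0.74 (adjusted p = 4.27e-06). The call on the first probe was lost without TO-d replicate 1 (0.0844), 3 (0.0525) or 4 (0.0811), or without WT-d replicate 4 (0.0662). It was also lost with Feature Extraction's processed signals (0.221), the authors' series table (0.0667), loess alone (0.0565) or no filter (0.0552). Slide as a covariate (0.0963), the replicate block (0.0625) and leaving out the b-coded samples (0.104) lost it too. The difference stayed below 0 in all of these. OT-d minus WT-d had opposite signs, log2 -0.11 on the first probe (not called), 0.12 (adjusted p = 0.277) without array 5, and 0.22 on the second (adjusted p = 0.0188). With the medium, Mmab fell in OT (log2 -0.74, adjusted p = 0.00881) and WT (-1.05, adjusted p = 0.00143) on the first probe and on the second (-0.27 and -0.63, adjusted p = 0.00267 and 3.96e-07). In TO the fall was not called on either (log2 -0.50 and -0.18), and was -0.78 on the first without array 5 (adjusted p = 4.06e-07). The Mmab probes lie on chromosome 5 at 114694063 to 114694122 and 114692232 to 114692291, and that of Mmaa on chromosome 8 at 82163998 to 82164057 (mm8).

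**Figure D3:**
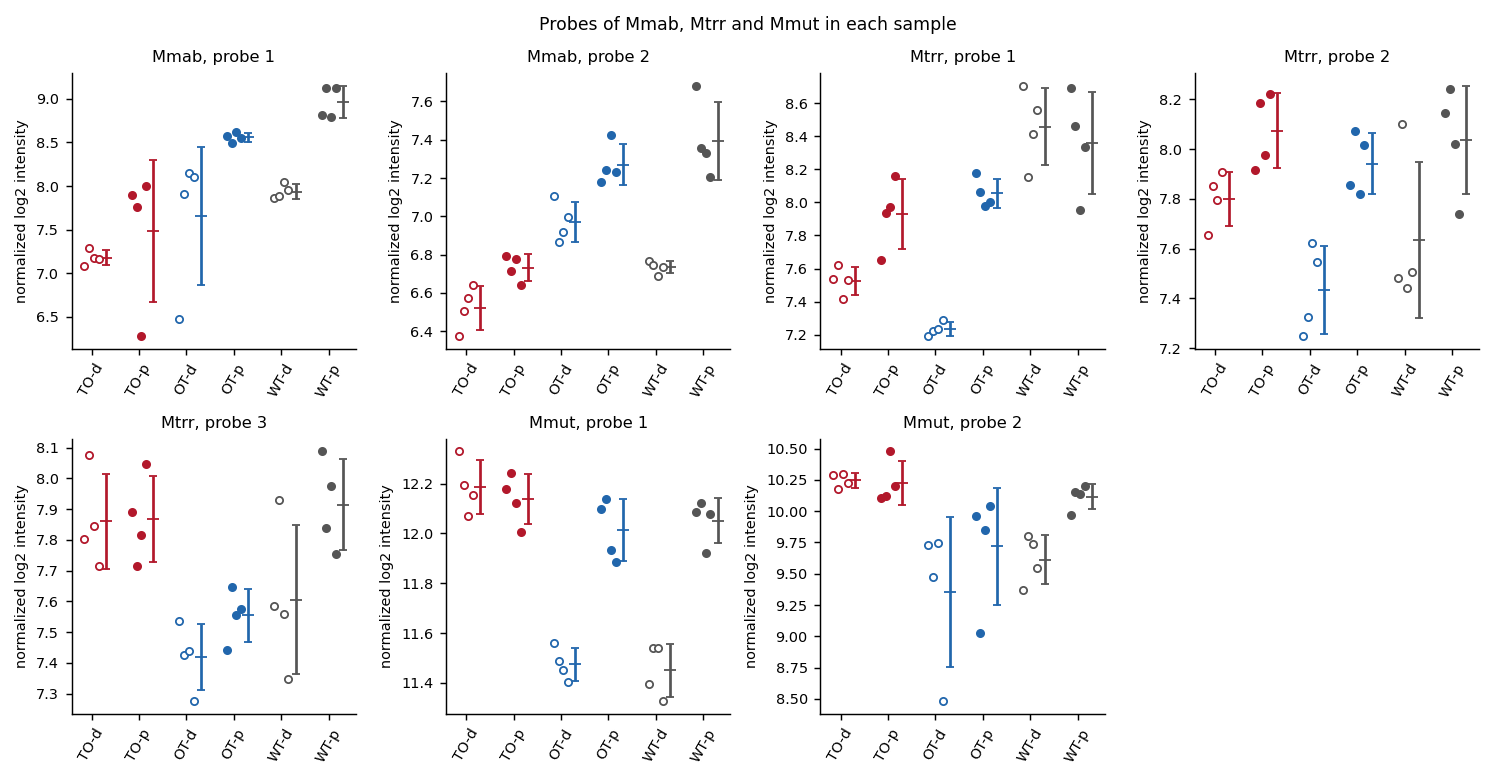
Normalized log2 intensity (vertical axes) of each probe of Mmab, Mtrr and Mmut that passed the filter, in the 4 samples of each group, with mean and SD; probe 1 stands for the gene. Mmab probe 1 has 1 low point in TO-p (6.28) and in OT-d (6.48) that probe 2 does not show, and only Mtrr probe 1 puts WT-d above every TO-d sample.

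Mmut, the adenosylcobalamin-dependent mutase itself, had levels of 12.33, 12.19, 12.07 and 12.16 in TO-d, 11.56, 11.49, 11.45 and 11.40 in OT-d and 11.40, 11.54, 11.54 and 11.33 in WT-d. In proliferation medium it had 12.18, 12.24, 12.12 and 12.01 in TO-p, 12.10, 12.14, 11.94 and 11.88 in OT-p and 12.09, 12.12, 11.92 and 12.08 in WT-p. The 3 lines overlapped in proliferation medium, and in differentiation medium TO-d stood alone above OT-d and WT-d. TO-d was 1.64-fold above OT-d (log2 0.72, SE 0.07, adjusted p = 1.41e-08; 0.61 and 0.73 within the 2 slides that hold both) and 1.68-fold above WT-d (0.75, SE 0.07, adjusted p = 2.65e-08; 0.62 and 0.91 within slides). Mmut fell 1.47-fold in OT-d against OT-p (adjusted p = 2.32e-08) and 1.54-fold in WT-d against WT-p (adjusted p = 2.91e-08), and TO-d minus TO-p was log2 0.04 (95% interval -0.09 to 0.17). The difference of the responses was itself called, log2 0.60 for TO against OT (adjusted p = 2.14e-05) and 0.66 for TO against WT (adjusted p = 1.8e-05). OT against WT gave 0.07 (95% interval -0.11 to 0.25), not called. In the order of group means, TO-d, TO-p, WT-p and OT-p were each within reach of the next, as were OT-d and WT-d, and only the step between OT-p and OT-d (0.54) had no overlap of samples.

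A second Mmut probe gave the same signs with more spread. On it TO-d was above OT-d by log2 0.86 (adjusted p = 0.000806) and above WT-d by 0.68 (adjusted p = 0.00728), while the differences of the responses, 0.50 and 0.60, were not called (adjusted p = 0.122 and 0.0758). Its lowest values, 8.48 in OT-d replicate 4 and 9.03 in OT-p replicate 2, came from 1 spot of array 12. The probes lie on chromosome 17 at 40424188 to 40424252 and 40424927 to 40424986 (mm8, plus strand).

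Pcca and Pccb encode the α and β subunits of propionyl-CoA carboxylase, the biotin enzyme that starts this route. Pcca had levels of 8.91, 9.02, 8.93 and 8.89 in TO-d, 8.19, 8.32, 8.16 and 8.32 in OT-d and 8.25, 8.16, 8.15 and 8.06 in WT-d. In proliferation medium it had 9.14, 9.16, 8.84 and 9.07 in TO-p, 8.57, 8.69, 8.72 and 8.54 in OT-p and 9.25, 9.02, 9.13 and 9.08 in WT-p. OT was thus the low line in proliferation medium, and TO the high line in differentiation medium. TO-d was 1.58-fold above OT-d (log2 0.66, SE 0.07, adjusted p = 5.31e-08) and 1.69-fold above WT-d (0.75, SE 0.07, adjusted p = 2.42e-08). Within the 2 slides that hold each pair these were 0.66 and 0.72 against OT-d, and 0.74 and 0.76 against WT-d. TO-p was 1.34-fold above OT-p (adjusted p = 4.33e-06), OT-p was 1.40-fold below WT-p (adjusted p = 5.14e-07), and TO-p minus WT-p was log2 -0.06 (95% interval -0.18 to 0.07). Pcca fell 1.93-fold in WT-d against WT-p (adjusted p = 3.11e-11) and 1.29-fold in OT-d against OT-p (adjusted p = 1.06e-05). TO-d minus TO-p was log2 -0.14 and not called (adjusted p = 0.0745; 0.0185 without TO-p replicate 3). The response differed between TO and WT by log2 0.81 (adjusted p = 2.24e-06) and between OT and WT by 0.58 (adjusted p = 1.86e-05). Between TO and OT it differed by 0.23 at an adjusted p of 0.0498, which 17 of 24 refits without 1 sample lost (adjusted p between 0.038 and 0.105).

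Pccb, by contrast, had a span of group means of 0.36, the smallest of the 10 genes. Its levels were 7.05, 7.25, 7.54 and 7.34 in TO-d, 6.88, 7.06, 7.33 and 7.39 in OT-d and 6.81, 7.09, 6.92 and 6.92 in WT-d, so that the groups overlapped. The 1 difference called among the 9 pairs of groups was TO-d above WT-d, 1.24-fold (log2 0.31, adjusted p = 0.0173; 0.0627 without WT-d replicate 4). The medium responses were log2 0.17 in TO, 0.17 in OT and -0.06 in WT, none of them called, with 95% intervals from -0.02 to 0.37 in TO and -0.27 to 0.14 in WT.

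Mcee, the epimerase between carboxylase and mutase, had 9.72, 9.57, 9.63 and 9.73 in TO-d and 9.66, 9.69, 9.92 and 9.65 in TO-p. It had 9.64, 9.57, 9.81 and 9.49 in OT-d and 9.19, 9.05, 9.07 and 9.17 in OT-p, and 9.68, 9.97, 10.01 and 9.86 in WT-d and 9.26, 9.67, 9.58 and 9.63 in WT-p. OT-p was the low group, with no sample in reach of the others. TO-p was 1.49-fold above OT-p (log2 0.58, SE 0.08, adjusted p = 4.5e-06; 0.48 to 0.71 within the 3 slides), and OT-p was 1.31-fold below WT-p (adjusted p = 0.00023). OT-d was 1.19-fold below WT-d (adjusted p = 0.0196), a call lost without OT-d replicate 4 (0.073) or WT-d replicate 2 (0.123). Mcee rose in OT-d against OT-p (log2 0.46, adjusted p = 2.42e-05) and in WT-d against WT-p (0.32, adjusted p = 0.00399), and TO-d minus TO-p was -0.05 (95% interval -0.23 to 0.13). The response of TO minus that of OT was log2 -0.51 (adjusted p = 0.00189), and minus that of WT -0.37 (adjusted p = 0.0269; lost without TO-d replicate 4, 0.0533, WT-p replicate 1, 0.0779, or WT-d replicate 2, 0.0568). With loess normalization alone the Mcee rise in WT was log2 0.07 (adjusted p = 0.621). The response of TO was then -0.35 against OT (adjusted p = 0.0677) and -0.04 against WT (0.879), neither called. Without the 6 samples whose code ends in b, the rise in WT was 0.21 (adjusted p = 0.102). The response of TO against WT was then -0.27 (adjusted p = 0.205). The probes of these 3 genes lie on chromosome 14 at 121948406 to 122011981 for Pcca, chromosome 9 at 100791783 to 100791842 for Pccb and chromosome 7 at 64290920 to 64290979 for Mcee (mm8).

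**Figure D4:**
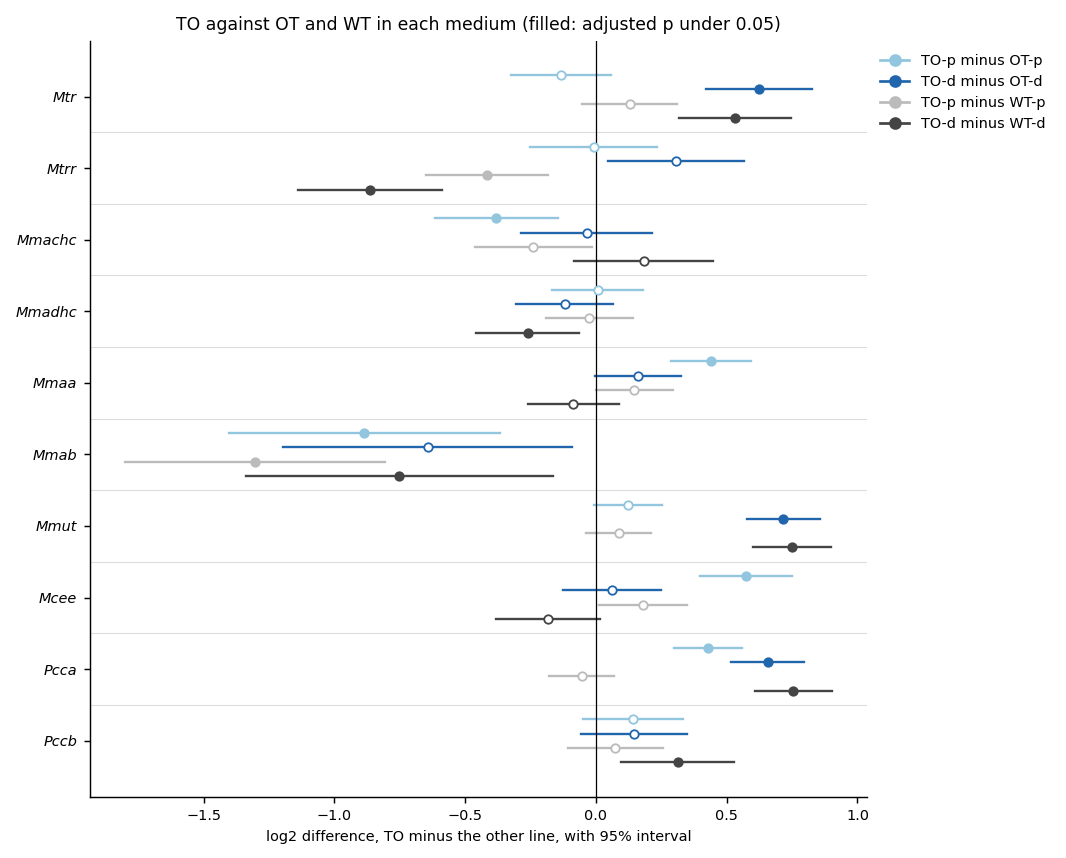
Fitted log2 difference of TO from OT and from WT in each medium (horizontal axis) with its 95% interval, by gene; filled points have an adjusted p under 0.05. Mmut and Pcca lie between 0.66 and 0.75 in the differentiation comparisons, and the intervals of Mmab are the widest.

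Across all 10 genes, the difference of medium responses was called in 5 for TO against OT (3 toward a higher TO value in d: Mtr, Mmut and Pcca; 2 lower: Mmaa and Mcee), where 40% of all tested genes were called (17.2% higher, 22.8% lower). For TO against WT it was 5 (Mtr, Mmut and Pcca higher, Mtrr and Mcee lower) against 36.4% (17.5% higher, 18.9% lower). For OT against WT it was 3 (Pcca higher, Mtr and Mtrr lower) against 34.8% (20.4% higher, 14.5% lower). The Mtrr calls came from the upstream probe and were not made on either downstream probe, and 16 of 24 refits without 1 sample lost that of TO against WT. The Mtr difference between OT and WT was log2 -0.35 (adjusted p = 0.0317), and was lost without any 1 of 6 samples (adjusted p between 0.0544 and 0.101). On the second Mmab probe the response differed between TO and WT by log2 0.45 (adjusted p = 0.00339) and between OT and WT by 0.37 (adjusted p = 0.00885), which were not called on the first probe (0.55 and 0.31). Without array 5 the first probe gave 0.28 for TO against WT, not called, and 0.55 for OT against WT (adjusted p = 0.00151). The median over the 10 genes was log2 0.24 for TO against OT and 0.32 for TO against WT, beside -0.03 and -0.04 over all tested genes.

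Over the 24 samples the genes fell into groups that moved alike after the dye effect was taken out. Pearson's r was 0.88 between Mmut and Pcca and 0.85 between Mtr and Mmachc. Mmaa ran against Mmachc (-0.85) and Mtr (-0.79) and with Mcee (0.78). The 2 subunits of the carboxylase had r of 0.24, and Mmab and Mmut 0.00. These are descriptions: the samples share arrays, media and lines. Of the 13791 tested genes with a symbol, those most like Mtr were Tars2, a mitochondrial threonyl-tRNA synthetase (r = 0.979), Aldh4a1, an enzyme of proline breakdown (0.978), and Mthfd2, of the mitochondrial folate route (0.973). Those most like Mmachc were Snrpd1, a core protein of the spliceosome (0.984), Slc35g1 (0.981) and Tmed1 (0.979), and those most like Mmab were Fam220a (0.958), Casp8ap2 (0.845) and Rnf126 (0.838). Every r of Mmab, that with Mmut included, is of the probe that stands for the gene. Each includes the low levels of 6.28 in TO-p replicate 3 and 6.48 in OT-d replicate 1, which the other Mmab probe did not show. The r of Mmab without these samples is not given here, so its likeness to other genes may rest on them.

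The genes that supply these enzymes with substrate and cofactor were read out from lists, which were not tested as sets. Of all tested genes, 25.8% fell and 26.4% rose in TO-d against TO-p. In OT-d against OT-p 31% fell and 36.3% rose, and in WT-d against WT-p 30.7% fell and 35.8% rose. In TO-d 22.9% were higher and 23.7% lower against WT-d, and 19% higher and 20.9% lower against OT-d. Of 24 tested genes of the folate cycle, which gives methionine synthase its methyl group, 16 fell and 0 rose in TO-d against TO-p. In OT-d against OT-p, 18 fell and 3 rose, and 18 fell and 2 rose in WT-d against WT-p. Their median change was log2 -0.31 in TO, -0.95 in OT and -0.93 in WT, beside 0.00, 0.04 and 0.06 over all genes. Tyms, thymidylate synthase, changed by log2 -2.59 in TO, -3.71 in OT and -4.35 in WT. In differentiation medium 13 of the 24 were higher and 3 lower in TO-d against WT-d (median 0.36), among them Mthfd1 (log2 1.03, adjusted p = 8.18e-08) and Aldh1l2 (0.98, adjusted p = 1.35e-08), enzymes that interconvert one-carbon folates. Against OT-d, 11 were higher and 5 lower in TO-d (median 0.16), with Aldh1l2 at 1.93 (adjusted p = 3.93e-14). Folr1, a folate receptor, was lower in TO-d against OT-d (-0.42, adjusted p = 1.34e-05) and against WT-d (-0.62, adjusted p = 2.2e-07). In proliferation medium 5 of the 24 were higher and 12 lower in TO-p against OT-p, where 29.8% of all tested genes were higher and 26.1% lower. Against WT-p 5 were higher and 7 lower, where 18.8% of all tested genes were higher and 15.6% lower.

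Of 15 tested genes of the methionine cycle and transsulfuration, 5 fell and 3 rose in TO with the medium. In OT 8 fell and 4 rose, and in WT 10 fell and 4 rose. Of all tested genes, 25.8% fell and 26.4% rose in TO. In OT 31% fell and 36.3% rose, and in WT 30.7% fell and 35.8% rose. The same shares stand beside the branched-chain counts below. Cth, which makes cysteine from cystathionine, changed by log2 -2.24 in TO, -2.52 in OT and -2.54 in WT, and was higher in TO-d against OT-d (1.01, adjusted p = 2.47e-08). Gamt, which makes creatine with a methyl group of this cycle, was lower in TO-d against OT-d (-0.58, adjusted p = 1.13e-06). In all, 6 of the 15 were higher and 2 lower in TO-d against OT-d, and 5 higher and 5 lower against WT-d. Of 22 genes of branched-chain amino acid breakdown, a source of propionyl-CoA, 8 fell and 10 rose in TO, 8 fell and 9 rose in OT and 8 fell and 8 rose in WT. Bcat1, the cytosolic branched-chain aminotransferase, was higher in TO-d against OT-d (log2 1.22, adjusted p = 4.36e-09) and against WT-d (1.37, adjusted p = 2.88e-09). Bckdha, a subunit of the branched-chain keto acid dehydrogenase, was lower in TO-d against OT-d (-0.37, adjusted p = 0.00741) and against WT-d (-0.42, adjusted p = 0.00408). In all, 8 of the 22 were higher and 3 lower in TO-d against OT-d, and 4 higher and 5 lower against WT-d. Of 6 tested genes of biotin enzymes and biotin handling, 2 were higher and 1 lower in TO-d against WT-d, and likewise against OT-d. Hlcs, the ligase that attaches biotin to Pcca, was higher in TO-d against OT-d (log2 0.86, adjusted p = 5.04e-09), in TO-d against WT-d (0.96, adjusted p = 3.84e-09), in TO-p against OT-p (0.64, adjusted p = 8.23e-08) and in TO-p against WT-p (0.46, adjusted p = 1.49e-05). Acacb, a biotin-dependent acetyl-CoA carboxylase, was lower in the same 4 comparisons: by log2 -1.07 in TO-d against OT-d (adjusted p = 9.23e-08), -1.15 in TO-d against WT-d (adjusted p = 1.16e-07), -0.90 in TO-p against OT-p (adjusted p = 1.95e-07) and -0.91 in TO-p against WT-p (adjusted p = 4.05e-07).

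Of 8 tested genes that act after or beside the mutase, on succinyl-CoA, malonyl-CoA or citramalyl-CoA, 2 were higher and 1 lower in TO-d against OT-d, where 19% of all tested genes were higher and 20.9% lower. Against WT-d, 5 were higher and 0 lower in TO-d, where 22.9% of all tested genes were higher and 23.7% lower, among them Suclg1, a subunit of succinyl-CoA ligase (log2 0.67, adjusted p = 4.81e-06). Clybl, the mitochondrial citramalyl-CoA lyase, whose loss in humans lowers circulating B12, was higher in TO-p against OT-p (log2 1.40, adjusted p = 3.61e-10) and in TO-d against OT-d (0.55, adjusted p = 0.000619). Of 13 genes of the tricarboxylic acid cycle, which takes up succinyl-CoA, 8 fell and 0 rose in TO-d against TO-p. In OT-d against OT-p 11 fell and 1 rose, and in WT-d against WT-p 10 fell and 1 rose. Of all tested genes, 25.8% fell and 26.4% rose in TO with the medium. In OT 31% fell and 36.3% rose, and in WT 30.7% fell and 35.8% rose. Of these, 3 were higher and 3 lower in TO-d against OT-d, 9 were higher and 0 lower in TO-d against WT-d (median 0.35), and 10 were higher and 0 lower in OT-d against WT-d (median 0.27).

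Upstream, Tcn2, the transcobalamin gene, was higher in TO-p against OT-p (8.97 and 7.59, log2 1.39, adjusted p = 8.27e-11) and in TO-d against OT-d (9.56 and 9.07, 0.41, adjusted p = 0.00296). It was also higher in TO-p against WT-p (1.08, adjusted p = 8.98e-09) and in TO-d against WT-d (0.58, adjusted p = 0.000194), and whether its probe also reads the fusion was not tested. Cd320, the receptor, averaged 11.01 in TO-d, 10.64 in OT-d and 11.49 in WT-d. TO-d was thus higher than OT-d (log2 0.33, adjusted p = 0.0204) but lower than WT-d (-0.51, adjusted p = 0.00129), as was OT-d (-0.84, adjusted p = 6.93e-07). Of the 8 tested genes of uptake and transport, 4 were higher and 1 lower in TO-d against OT-d, where 19% of all tested genes were higher and 20.9% lower. Against WT-d, 2 were higher and 2 lower in TO-d, where 22.9% of all tested genes were higher and 23.7% lower. Lrpap1, the chaperone of the receptor megalin, was lower in TO-d against OT-d (-0.31, adjusted p = 0.00631) and against WT-d (-0.52, adjusted p = 8.08e-05). Abcd4, which with Lmbrd1 brings cobalamin out of the lysosome, was higher in TO-p against OT-p (log2 1.38, adjusted p = 9.07e-09), in TO-d against OT-d (0.67, adjusted p = 0.000206), in TO-p against WT-p (0.91, adjusted p = 7.16e-06) and in TO-d against WT-d (0.42, adjusted p = 0.0135).

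The genes that flank a member on its chromosome were compared with it, taking the 10 nearest tested genes on each side by the positions in the files. Around Mmab, 20 genes within 0.979 Mb of chromosome 5 were lower in TO as a group: their median was log2 -0.69 for TO-p minus OT-p (15 called lower, 1 higher), -0.64 for TO-d minus OT-d (15 lower, 0 higher), -0.64 for TO-p minus WT-p (14 lower, 0 higher) and -0.65 for TO-d minus WT-d (16 lower, 0 higher). Between OT and WT it was 0.02 in proliferation and -0.02 in differentiation medium. Around Mtr, 20 genes within 7.04 Mb of chromosome 13 had a median of log2 0.54 for TO-d minus OT-d (13 higher, 0 lower), near Mtr's own 0.62, and 0.32 for TO-p minus OT-p (13 higher, 1 lower), where Mtr itself was at -0.13. Against WT-d the same neighbours were at 0.10, where Mtr was at 0.53, and the difference of responses of TO and OT was 0.00 in them, where Mtr was at 0.76. For OT-p minus WT-p they were at -0.245 (11 lower, 1 higher), where Mtr was at 0.26. For OT-d minus WT-d they were at -0.34 (14 lower, 2 higher), where Mtr was at -0.09. The shares of all tested genes called in these comparisons are those given with the counts of the 10 genes. Around Mmut on chromosome 17 the neighbours' median was 0.23 for TO-d minus OT-d and 0.02 for TO-d minus WT-d, beside 0.72 and 0.75 in Mmut. Around Pcca on chromosome 14 it was 0.05 and 0.04, over 14 neighbours, beside 0.66 and 0.75. Around Mtrr, in another part of chromosome 13, it was 0.02 for TO-d minus OT-d. The neighbours' part in the differences of Mmab and Mtr was not tested.

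**Figure D5:**
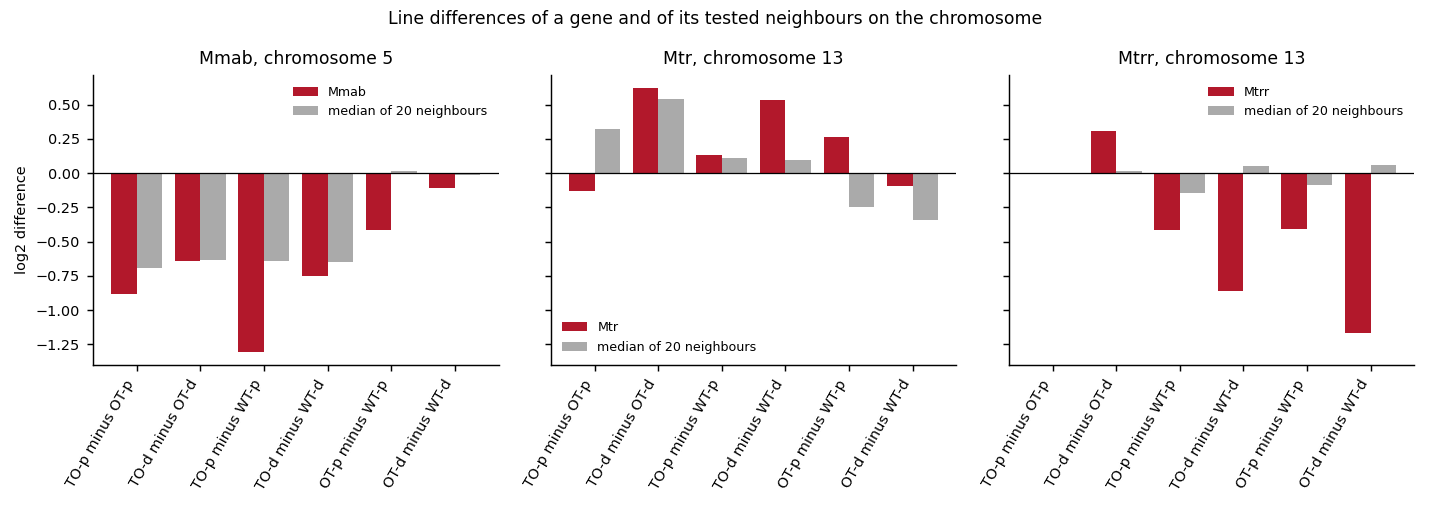
Fitted log2 difference (vertical axis) between lines in each medium for Mmab, Mtr and Mtrr (red bars) and the median of the 20 nearest tested genes on the chromosome (grey bars). The neighbours of Mmab lie near -0.65 in the 4 comparisons of TO with another line and near 0 between OT and WT.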

How the data were processed

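Total RNA of 24 samples was hybridised to 12 Agilent arrays of 2 colours. Per the file headers the deposited files hold spot intensities, which the scanner software (Agilent Feature Extraction, version 10.5.1.1) had not normalized between arrays; the authors' series table holds processed values, which were taken as log2 for an alternative. Mean signals less local background (normexp, offset 50) were normalized by loess within arrays and Aquantile between them in limma 3.58.1 (statmod 1.5.0, R 4.3.3; tables and figures in Python 3.11.15), leaving out 1639 control spots and, after the data were seen, 10 spots beside debris on 2 arrays. Spots of a probe were averaged, and of several probes of a gene the brightest on average was used. A gene was tested if well above background in all 4 samples of a group, which left 16240 genes. Group means and a dye term were fitted to all 24 samples with the array as a block (intraspot correlation 0.433). All comparisons of a gene thus share 1 estimate of its spread, to which an outlying sample in any group adds. Probe-by-probe tests were adjusted over 24347 probes. The fit was tested on simulated data.

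The members and the 8 lists were chosen with earlier results of these data known. From each list, at most 2 genes per direction and comparison were nameable, those with the largest called difference and no overlap of samples; Tcn2 and Cd320 were always read, and for the 3 members with the widest range of group means the 3 most alike genes. Alternatives were Feature Extraction's processed signals, the series table, quantile or loess normalization alone, no filter, the mean of the probes or another probe, no dye term, slide, the replicate number, the 6 samples whose code ends in b left out, and each sample left out. The replicate numbers were not taken to pair the samples. Probe positions are those of the files (mm8); promoters are RefSeq's (GRCm38.p6). Exons and introns under the probes were not annotated here.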

Additional observations from a re-analysis of the deposited data

Results flagged for a closer look

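In 6 of 90 groups of 4 values, 1 sample lay far from the other 3, measured as its gap to the nearest sample over the whole range; chance gives about 1 in 20. The ratio was 0.857 for Mmab in TO-p replicate 3 (6.28, the others 7.76 to 8.00) and 0.852 for Mmab in OT-d replicate 1 (6.48, the others 7.90 to 8.15), both read from 1 spot of array 5. It was 0.842 for Mcee in TO-p replicate 3 (9.92, the others 9.65 to 9.69). For Mmadhc it was 0.867 in OT-d replicate 3 (11.56, the others 11.88 to 11.93) and 0.859 in OT-p replicate 1 (12.22, the others 12.06 to 12.08). For the second Mtrr probe it was 0.901 in WT-d replicate 2 (8.10, the others 7.44 to 7.51).

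The response to differentiation medium differed between lines, by limma's test of the difference itself, in 13 cases. For Mtr the difference was log2 0.757 between TO and OT, 0.402 between TO and WT and -0.354 between OT and WT; on the second Mtr probe that of TO and WT was 0.09 and not called (adjusted p = 0.574). For Mmut it was 0.595 between TO and OT and 0.662 between TO and WT. For Pcca it was 0.229 between TO and OT, 0.809 between TO and WT and 0.58 between OT and WT. For Mcee it was -0.514 between TO and OT and -0.365 between TO and WT, and for Mmaa -0.279 between TO and OT. For Mtrr it was -0.447 between TO and WT and -0.763 between OT and WT, on the upstream probe. The causes were not tested.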

How the results depend on the processing

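Of 2880 values for the 10 genes with 1 sample left out, 71 lost a call and 34 gained one, and none turned sign among those called with or without the sample; values near 0 that were called in neither were not counted. The count of genes called then ran from 5 to 6 for TO-p against OT-p, 3 to 4 for TO-d against OT-d, 1 to 4 for TO-p against WT-p, 4 to 8 for TO-d against WT-d, 4 to 5 for OT-p against WT-p and 2 to 4 for OT-d against WT-d. For the medium it ran from 5 to 7 in TO, 8 to 10 in OT and was 7 in WT throughout, and for the differences of responses from 3 to 5 (TO against OT), 2 to 6 (TO against WT) and 2 to 5 (OT against WT). With loess alone the count was 5 for TO-d against OT-d, 1 for OT-d against WT-d and 3 for the response of TO against OT. With the mean of the probes it was 5 for TO-d against OT-d and 1 for TO-p against WT-p. Without the b-coded samples it was 2 for OT-p against WT-p. The response of TO against OT gave 3 with no filter, without the b-coded samples, without array 5 and without array 12; that of TO against WT gave 3 in the series table and without array 5. Leaving out array 5 or array 12, and keeping the spots beside debris, were added after seeing the data. The share of all tested genes called in each refit is not given here, so these counts are no result about the genes as a set. The cause of these shifts was not tested, beyond the fewer samples in some. With loess alone the median of all genes moved to 0.108 for TO-d against WT-d and to 0.141 and 0.109 for the responses of TO and OT against WT, and 75.4%, 81.2% and 81.2% of calls were then higher. For WT-d against WT-p 37.8% of calls were then higher, and with the processed signals the median was 0.185.

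Among values called in either setting, signs turned in 13, all of Mtrr or Mmab and all by choice of probe. With the mean of its probes Mtrr gave -0.235 for WT-d against WT-p and 0.007 for the response of TO against WT. Its second probe gave 0.017 for TO-p against WT-p, 0.174 for TO-d against WT-d, -0.419 for WT-d against WT-p and 0.156 for the response of TO against WT. Its most downstream probe gave 0.268 for TO-p against OT-p, 0.251 for TO-d against WT-d, -0.299 for WT-d against WT-p, 0.021 for TO-d against TO-p, and 0.32 and 0.076 for the responses of TO and of OT against WT. The second Mmab probe gave 0.223 for OT-d against WT-d.

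The labels do not tie the replicate number to a day or culture. Over 60 pairs the correlation of like-numbered samples ran from -0.3 to 0.32 with a median of -0.02, and 15 were over 0.1. Samples of unlike number were not compared, so whether the number pairs the samples was not settled. With the replicate block 6 genes were called for TO-d against WT-d and 4 for the response of TO against OT. The 2 calls lost were Mmab for TO-d against WT-d (-0.68, adjusted p = 0.0625) and Pcca for the response of TO against OT (0.23, adjusted p = 0.059).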
